A study of Mus musculus with 20 samples.

Results

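The neutrophil granule protein genes comprise 10 genes whose products are stored in the granules of neutrophils or, for S100a8 and S100a9, in their cytosol: the primary granule genes Mpo, Elane, Prtn3, and Ctsg, and the later genes Ltf, Camp, Ngp, Lcn2, S100a8, and S100a9. They were chosen by name, 10 of 21911 protein-coding genes of the annotation, and lie in 8 separate loci (3 primary and 5 later) because Elane and Prtn3 are neighbors, as are S100a8 and S100a9. Peaks of 3 histone marks that overlapped a gene body or the 20 kb on either side of it were collected, which gave 539 of the 591292 peaks of 12 lists. The lists come from Lin- bone marrow cells, the cells left after mature cells with lineage markers are removed from mouse marrow (stated purity above 80%), with 1 library for each of 4 genotypes and 3 marks. All 4 groups were C57BL/6 mice that carried floxed Ep300 alleles and were given 3 doses of poly(I:C) (10 μg/g) at 6 to 8 weeks of age. The methods state that both sexes were used in the study as a whole and do not give sex by group. WT mice were Ep300 fl/fl without Cre, Ep300Δ/Δ mice carried Mx1-Cre with Ep300 fl/fl, Tet2-/- mice carried Ep300 fl/fl and no Tet2, and Ep300Δ/Δ Tet2-/- mice carried Mx1-Cre with Ep300 fl/fl and no Tet2. Mx1-Cre is driven by an interferon-inducible promoter, so it acts beyond blood cells, whereas Tet2 was missing from the germ line. The labels give neither the number of mice per library nor the time after poly(I:C) at which the marrow for these libraries was taken, and peak lists hold no measure of Ep300 or Tet2 RNA by which the labels could be checked. For experiments in general, the methods state 2 weeks after poly(I:C) or other times where given.

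Neutrophils make their granules in order. The serine proteases neutrophil elastase (Elane), proteinase 3 (Prtn3), and cathepsin G (Ctsg) and the enzyme myeloperoxidase (Mpo) are made by promyelocytes and stored in primary, or azurophil, granules. Lactoferrin (Ltf), the cathelicidin Camp, neutrophilic granule protein (Ngp), and lipocalin 2 (Lcn2) are made later, in myelocytes and metamyelocytes, and S100a8 and S100a9, which form calprotectin, fill the cytosol of mature cells. Transcription factors of the C/EBP, PU.1, RUNX, and MYB families act on many of these genes. p300, encoded by Ep300, acetylates histone H3 at lysine 27 (H3K27ac), a mark of active promoters and enhancers, whereas H3K4me1 marks enhancers and H3K4me3 marks promoters. TET2 oxidizes methylated cytosine in DNA.

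The start regions of the 4 primary genes and of Camp and Ngp are printed to show the motif letters in which the classes differ and the bases that H3K27ac peaks covered. RefSeq promoters of GRCm38.p6, the assembly also called mm10, cover 250 bases before to 50 after the start. All 10 members matched the table, and all 10 sequences equaled the genome at their coordinates. Capitals mark matches to C/EBP (TTNNGNAA), PU.1 (GAGGAA), RUNX (TGTGGT), or MYB (AACNGNC), searched on both strands, so the reverse complement of these letters is also in capitals. Each sequence reads in the direction of its gene.
Mpo promoter, chr11:87793534-87793833, plus strand: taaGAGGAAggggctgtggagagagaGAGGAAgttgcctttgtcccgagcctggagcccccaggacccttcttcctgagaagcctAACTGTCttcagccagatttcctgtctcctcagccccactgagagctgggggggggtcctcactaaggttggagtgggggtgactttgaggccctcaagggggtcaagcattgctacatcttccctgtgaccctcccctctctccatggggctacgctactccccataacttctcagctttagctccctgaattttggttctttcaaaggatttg
Elane promoter, chr10:79886062-79886361, plus strand: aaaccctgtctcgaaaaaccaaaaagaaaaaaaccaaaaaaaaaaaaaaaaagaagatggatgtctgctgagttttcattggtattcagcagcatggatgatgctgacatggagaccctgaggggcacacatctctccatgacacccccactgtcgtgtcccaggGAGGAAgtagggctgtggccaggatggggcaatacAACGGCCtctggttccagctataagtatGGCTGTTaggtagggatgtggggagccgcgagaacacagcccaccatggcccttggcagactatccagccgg
Prtn3 promoter, chr10:79879417-79879716, plus strand: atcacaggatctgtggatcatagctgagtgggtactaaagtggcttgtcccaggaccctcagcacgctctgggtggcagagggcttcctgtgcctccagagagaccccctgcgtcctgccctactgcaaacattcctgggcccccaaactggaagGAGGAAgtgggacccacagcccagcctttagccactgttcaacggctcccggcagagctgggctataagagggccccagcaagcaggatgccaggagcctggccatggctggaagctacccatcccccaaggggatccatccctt
Ctsg promoter, chr14:56102525-56102824, minus strand: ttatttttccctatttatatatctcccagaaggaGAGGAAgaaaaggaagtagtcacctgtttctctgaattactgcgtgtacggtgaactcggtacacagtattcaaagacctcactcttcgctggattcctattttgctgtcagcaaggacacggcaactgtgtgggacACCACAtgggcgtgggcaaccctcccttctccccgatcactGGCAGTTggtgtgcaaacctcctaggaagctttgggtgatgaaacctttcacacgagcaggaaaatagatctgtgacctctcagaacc
Camp promoter, chr9:109849407-109849706, minus strand: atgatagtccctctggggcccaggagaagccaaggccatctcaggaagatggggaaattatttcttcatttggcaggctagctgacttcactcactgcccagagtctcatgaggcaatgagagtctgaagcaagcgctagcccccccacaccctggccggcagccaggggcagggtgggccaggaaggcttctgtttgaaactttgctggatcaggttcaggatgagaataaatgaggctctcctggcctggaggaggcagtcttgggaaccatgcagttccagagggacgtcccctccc
Ngp promoter, chr9:110419558-110419857, plus strand: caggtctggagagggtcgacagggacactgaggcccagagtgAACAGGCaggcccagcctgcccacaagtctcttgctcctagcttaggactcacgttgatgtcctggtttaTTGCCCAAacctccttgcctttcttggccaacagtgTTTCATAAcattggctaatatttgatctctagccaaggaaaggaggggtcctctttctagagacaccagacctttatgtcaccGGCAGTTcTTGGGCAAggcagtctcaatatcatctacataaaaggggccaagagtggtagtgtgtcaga

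The C/EBP letters were in 0 of 4 primary promoters and in 5 of 6 later promoters (Ltf, Ngp, Lcn2, S100a8, and S100a9), against 40.7% of 32851 RefSeq promoters of the same length. The PU.1 letters were in 4 of 4 primary promoters and in 3 of 6 later ones (Ltf, Lcn2, and S100a8), against 28.3% of all promoters. The MYB letters were in Mpo, Elane, and Ctsg among the primary genes and in Ngp among the later ones, against 32.8%. The RUNX letters were in Ctsg, Ltf, and S100a9, against 16.8%. The Camp promoter held none of the 4. A match is a run of letters and not a bound site, and no match says only that these letters are not in this window.

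A pair of stretches away from the starts carried the H3K27ac regions that separated a shared from a WT-only pattern. Each is the 201 bases centered on a WT summit, with the same use of capitals.
Ctsg upstream, chr14:56105817-56106017, minus strand: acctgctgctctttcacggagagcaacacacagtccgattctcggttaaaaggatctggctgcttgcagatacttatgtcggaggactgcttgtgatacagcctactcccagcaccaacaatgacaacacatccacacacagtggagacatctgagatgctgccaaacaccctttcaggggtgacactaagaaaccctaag
Ngp upstream, chr9:110415777-110415977, plus strand: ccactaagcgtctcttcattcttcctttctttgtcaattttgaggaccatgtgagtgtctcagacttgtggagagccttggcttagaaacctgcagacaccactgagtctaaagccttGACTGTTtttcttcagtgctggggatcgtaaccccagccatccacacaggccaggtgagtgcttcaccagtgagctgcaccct

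The Ctsg stretch, with its WT summit at −3343 bases from the RefSeq start, lay whole inside an H3K27ac peak and an H3K4me1 peak in all 4 genotypes and held none of the 4 motifs. The Ngp stretch, with its summit at −3931, lay inside H3K27ac and H3K4me1 peaks in WT and in no peak of the other 3 genotypes, and it held 1 MYB match. Among all 29659 WT H3K27ac summits, stretches of this length held the C/EBP letters in 25.1%, PU.1 in 19.96%, RUNX in 12.9%, and MYB in 25.6% of cases.

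The H3K27ac lists held 29659 peaks in WT, 22727 in Ep300Δ/Δ, 24539 in Tet2-/-, and 18327 in Ep300Δ/Δ Tet2-/- cells, and the share of peaks with q above 0.05 was 7.17% in Ep300Δ/Δ against 0.780% to 0.900% in the other 3. Peak lists do not give depth, no scaling by the spike-in is described for them, and a region just under the threshold counts as absent. A single library per genotype and mark leaves no spread between replicates, so the genotypes were not tested against each other. Fewer cells that carry a mark and less of it per cell cannot be told apart in bulk chromatin. Fold enrichment over the H3 library is therefore given as a percentile within its own list, with 100 for the strongest peak.

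Mpo held the most acetylated bases of the 10 genes in each list. Within the gene and 3 kb on either side, here called the core, H3K27ac peaks covered 4860 bp in WT, 3041 bp in Ep300Δ/Δ, 4942 bp in Tet2-/-, and 5490 bp in Ep300Δ/Δ Tet2-/- cells. Among 21911 coding genes this ranked Mpo 500 in WT, 527 in Ep300Δ/Δ, 206 in Tet2-/-, and 66 in Ep300Δ/Δ Tet2-/- cells. The rank was thus nearest the top where both genes were missing and about equal in WT and Ep300Δ/Δ cells. The widest peak, over the first exons and introns, spanned 2407 bp in WT, 993 bp in Ep300Δ/Δ, 3462 bp in Tet2-/-, and 3174 bp in Ep300Δ/Δ Tet2-/- cells. Its fold stood at percentile 73.8 in WT, 44.0 in Ep300Δ/Δ, 83.1 in Tet2-/-, and 88.6 in Ep300Δ/Δ Tet2-/- cells. Its summit was placed 1580 bases after the start in WT and between 1437 and 1448 bases after it in the other 3 lists.

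The Mpo acetylation fell into 6 regions once the 4 lists were merged. The region over the start, chr11:87793119-87796865, had peaks in all 4 lists and contains the promoter printed above, of which 95 of 300 bases lay in peaks in WT, 300 in Ep300Δ/Δ, 300 in Tet2-/-, and 185 in Ep300Δ/Δ Tet2-/- cells. The next one inside the gene, chr11:87796914-87798223, had a peak in WT, Tet2-/-, and Ep300Δ/Δ Tet2-/- cells and none in Ep300Δ/Δ cells. An intronic region at chr11:87798438-87799156 had a peak in the 3 mutant lists and none in WT. A last intronic peak, chr11:87799685-87799971, was in Ep300Δ/Δ Tet2-/- cells only. Upstream, chr11:87792263-87792726 was in WT only, and chr11:87790396-87790968 was in WT and Ep300Δ/Δ, where its −log10 q was 0.193.

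Elane and Prtn3 lie head to tail within 20 kb on chromosome 10 and held 8 acetylated regions at their bodies or promoters, a promoter being 3000 bp on either side of any annotated transcript start. All 8 were in WT, 3 were in Ep300Δ/Δ, 1 was in Tet2-/-, and 1, a different one, was in Ep300Δ/Δ Tet2-/- cells. The 8 WT peaks stood between percentile 20.2 and 67.8 of their list, and the 4 Ep300Δ/Δ peaks at these regions between 2.20 and 20.1. The Tet2-/- region was a 252-bp peak at percentile 9.05, with its summit at −1125 bases from the Elane start. The Ep300Δ/Δ Tet2-/- region was a 439-bp peak at percentile 0.720, within the long annotated body of Prtn3, and its −log10 q of 1.29 means a q just above 0.05. That region and 1 neighbor, which are 2 of the 3 regions present in Ep300Δ/Δ, also lie on the promoter of Plppr3, the adjoining gene. Every mutant peak at these 8 regions thus stood at or below percentile 20.1 of its list.

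In bases, the Elane core held 2505 bp of H3K27ac in WT, 500 bp in Ep300Δ/Δ, 252 bp in Tet2-/-, and 0 bp in Ep300Δ/Δ Tet2-/- cells. The Prtn3 core held 4243 bp in WT, 1394 bp in Ep300Δ/Δ, 252 bp in Tet2-/-, and 439 bp in Ep300Δ/Δ Tet2-/- cells. The cores of the neighbors overlap, and the 252 bp of Tet2-/- cells are the same peak counted at both. Their printed promoters, 96 bases acetylated at Elane and 284 at Prtn3 in WT, held 0 acetylated bases in each mutant list. In the same window, 2 of 3 acetylated regions on the promoter of Ptbp1, a gene of a splicing regulator that most cells use, had peaks in all 4 lists. The stronger one stood at percentile 97.1 in WT, 94.0 in Ep300Δ/Δ, 88.7 in Tet2-/-, and 79.5 in Ep300Δ/Δ Tet2-/- cells. The region of Med16, a Mediator subunit gene, also had peaks in all 4 lists and touches the window at its edge.

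Ctsg kept peaks over its body in each list. Its printed promoter had 239 of 300 bases in H3K27ac peaks in WT, 0 in Ep300Δ/Δ, 278 in Tet2-/-, and 0 in Ep300Δ/Δ Tet2-/- cells. H3K27ac covered 92.9% of the Ctsg body in WT, 47.4% in Ep300Δ/Δ, 90.6% in Tet2-/-, and 70.4% in Ep300Δ/Δ Tet2-/- cells. The core held 3781 bp in WT, 1277 bp in Ep300Δ/Δ, 2668 bp in Tet2-/-, and 1896 bp in Ep300Δ/Δ Tet2-/- cells. WT had the most bases and Ep300Δ/Δ the fewest. Of 12 regions in the Ctsg window, 12 were in WT, 3 in Ep300Δ/Δ, 4 in Tet2-/-, and 4 in Ep300Δ/Δ Tet2-/- cells, and 8 of them were in WT only, beside 21.1% of all regions of the 4-list merge. The upstream region that holds the Ctsg stretch printed above, chr14:56105612-56106319, was in all 4 lists, at percentile 80.2 in WT, 32.9 in Ep300Δ/Δ, 66.8 in Tet2-/-, and 4.57 in Ep300Δ/Δ Tet2-/- cells. Another 5 regions, all with a WT peak, lay on the promoter of Mcpt8, a protease gene of basophils, and 1 of these 5 had peaks in Tet2-/- and Ep300Δ/Δ Tet2-/- cells, at percentiles 25.3 and 16.2.

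**Figure D1:**
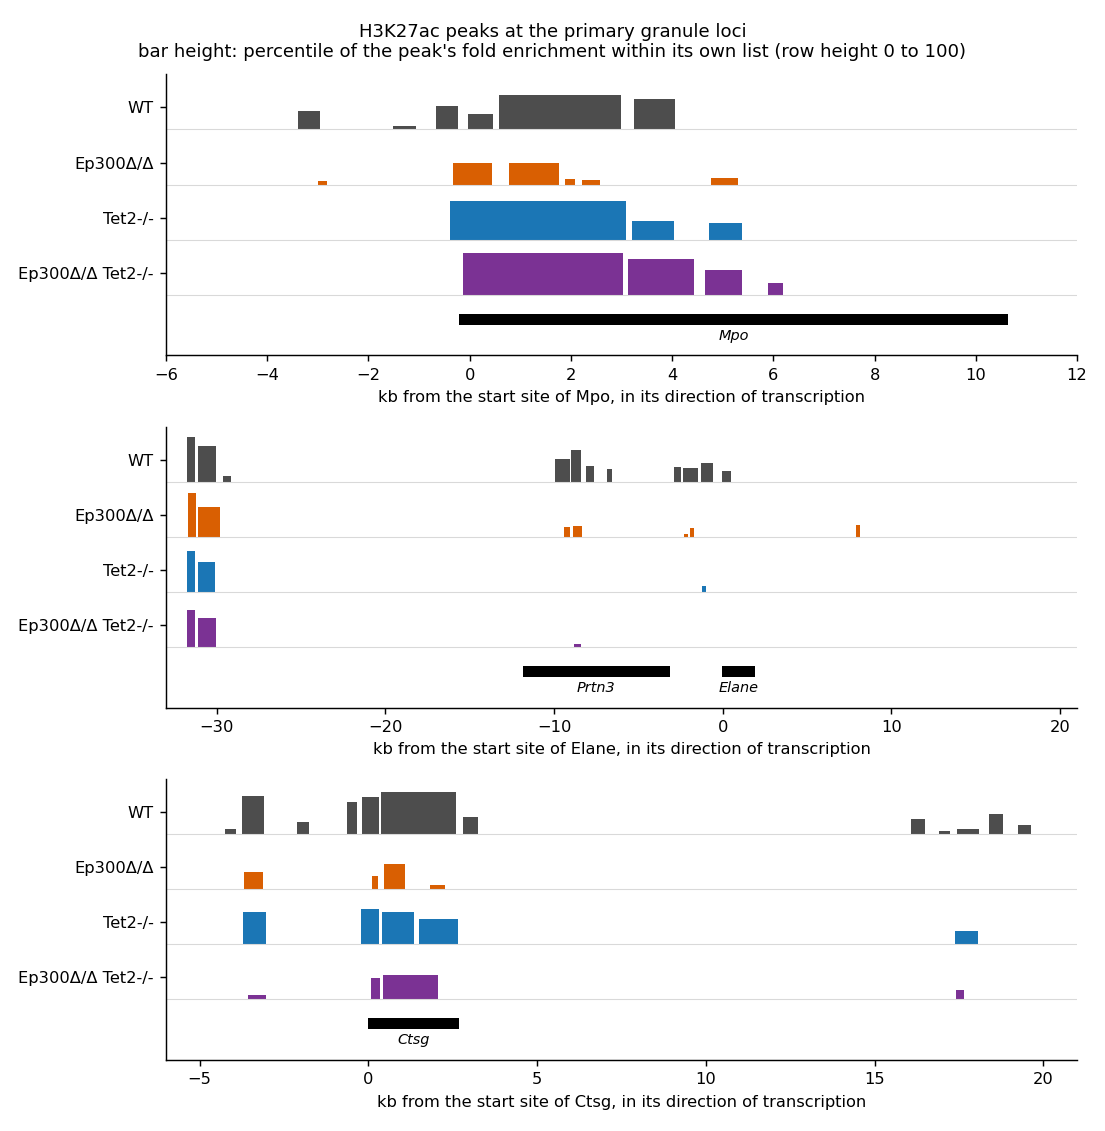
H3K27ac peaks at the primary granule loci, with distance from the RefSeq start in kb on the horizontal axis (from the Elane start in the middle panel), 1 row per genotype, and bar height as the percentile of a peak's fold within its own list. Peaks over Mpo and over the Ctsg body stand in all 4 rows, whereas the Elane and Prtn3 panel holds 8 regions at the genes in WT, 3 in Ep300Δ/Δ, and 1 each in Tet2-/- and Ep300Δ/Δ Tet2-/- cells.

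At the later genes acetylation was sparse and mostly in WT. Ltf, Lcn2, and S100a8 had no H3K27ac peak in their cores in any list. Camp, the cathelicidin gene of the mouse, held 1626 bp in WT, 0 bp in Ep300Δ/Δ, 238 bp in Tet2-/-, and 0 bp in Ep300Δ/Δ Tet2-/- cells. Its 3 WT peaks stood at percentiles 8.04, 13.9, and 29.7, and the Tet2-/- peak at 12.1. The printed Camp promoter had 186 of 300 bases in a WT peak and 0 in each other list.

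Ngp held 325 bp of H3K27ac in WT, and 0 bp in each of the 3 mutant lists. That peak, with its summit at −2615 bases from the start, stood at percentile 32.05, and the stretch printed above belonged to a second WT-only peak at percentile 41.4. S100a9 held 281 bp in WT and 0 bp in the other 3, in a single peak at percentile 56.1 with its summit in an exon. The S100a8 window held no H3K27ac peak in any list.

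Acetylated regions off the bodies and promoters of the members were counted in the same windows. Of 12 such regions in the primary windows, 11 were in WT and 5 in each mutant list, 4 were in all 4 lists, and 6 were in WT only. Of all regions of the 4-list merge, 35.5% were in all 4 lists and 21.1% in WT only. Of 10 such regions in the later windows, 8 were in WT, 7 in Ep300Δ/Δ, 7 in Tet2-/-, and 6 in Ep300Δ/Δ Tet2-/- cells, and 6 were in all 4. The promoter region of Ptges2, a prostaglandin E synthase gene beside Lcn2, stood at percentile 95.6 in WT, 94.6 in Ep300Δ/Δ, 94.6 in Tet2-/-, and 99.0 in Ep300Δ/Δ Tet2-/- cells. The region of Ccrl2, a chemokine-binding receptor gene beyond Ltf, stood at 85.2, 36.4, 83.0, and 56.7 in the same order. The region of Nme6, a nucleoside diphosphate kinase gene beside Camp, stood at 77.1, 62.2, 53.0, and 0.194. A pair of regions at Ptpn23, a phosphatase family gene beside Ngp, was also in all 4 lists.

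**Figure D2:**
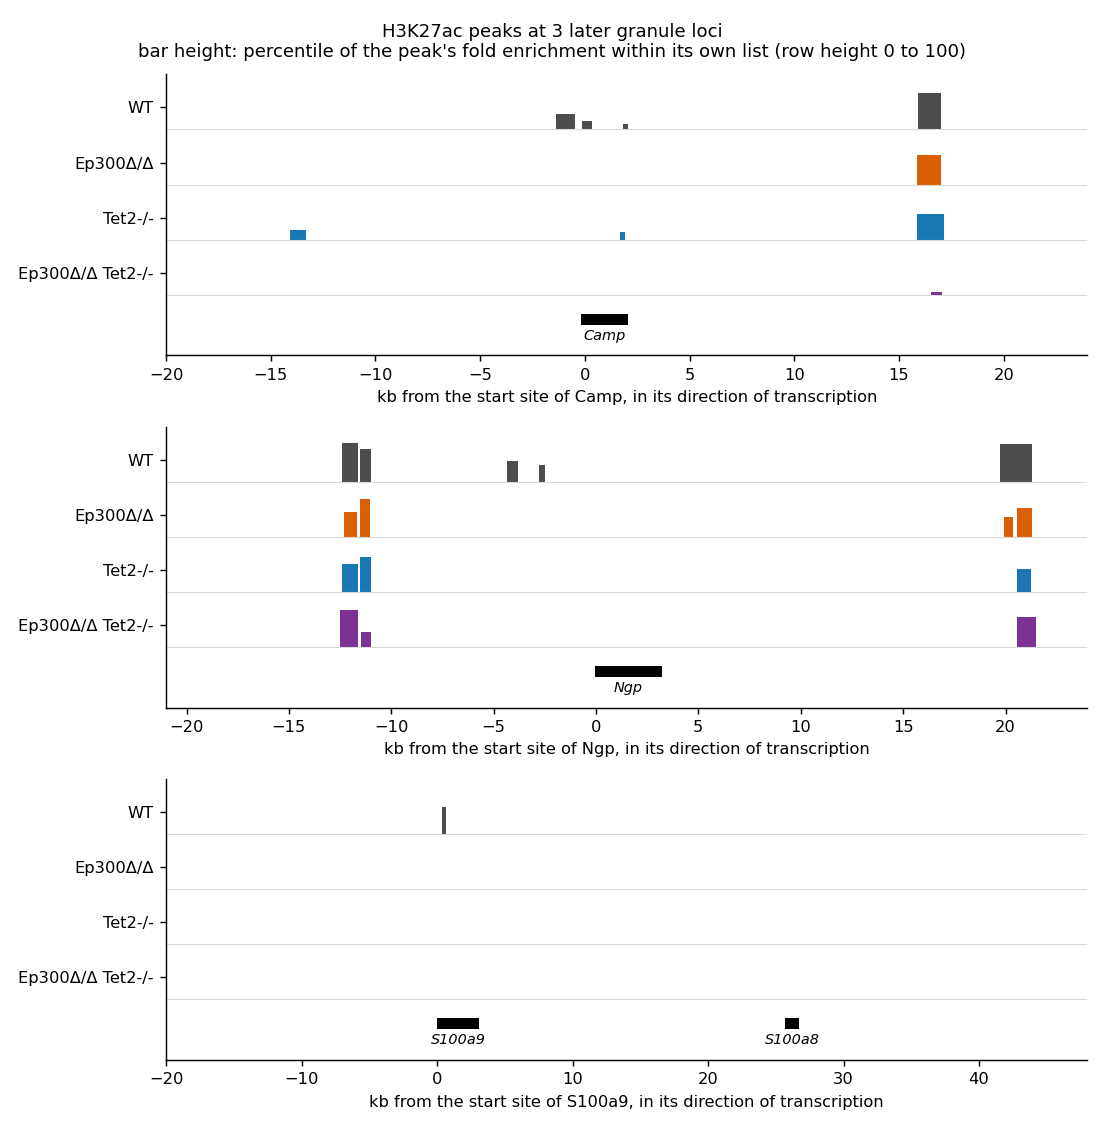
H3K27ac peaks at 3 later granule loci, with distance from the RefSeq start in kb on the horizontal axis, 1 row per genotype, and bar height as the percentile of a peak's fold within its own list. Camp, Ngp, and S100a9 with S100a8 have a panel each. Bars within 5 kb of the 3 starts stand in the WT row, with 1 further bar at Camp in the Tet2-/- row, and the bars of Nme6 (right in the Camp panel) and Ptpn23 (left in the Ngp panel) stand in all 4 rows.

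To ask how much of the acetylation in the windows was missing where Ep300 was deleted, pairs of lists were merged. A merged region counted as lost where the second list had no peak with at least 1 bp of overlap. It counted as gained where the first had none. The windows also hold regions of neighboring genes. In the 4-list merge, 11 of 28 primary and 8 of 13 later WT regions lay off the members, as did 7 of 8 later Tet2-/- regions. At the members, 17 primary regions were in WT and 8 in Ep300Δ/Δ cells. Later regions at the members were 5 in WT and 0 in Ep300Δ/Δ cells. From WT to Ep300Δ/Δ cells, 17 of 28 primary regions (60.7%, exact 95% interval 40.6 to 78.5) and 7 of 13 later regions (53.8%, 25.1 to 80.8) were lost, beside 39.7% of all regions. Together 24 of 41 were lost (58.5%, 42.1 to 73.7). Between Tet2-/- and Ep300Δ/Δ Tet2-/- cells, 1 of 11 primary regions (9.09%, 0.230 to 41.3) and 2 of 8 later regions (25.0%, 3.19 to 65.1) were lost, beside 37.8% of all regions. The intervals cover counting error only and treat regions as independent, although neighboring regions share a locus. The 3 regions lost in the second comparison were the Elane peak of 252 bp, a Camp peak of 238 bp, and a peak with its summit at −13733 bases from the Camp start. With lists of equal size the second comparison had 0 of 9 primary and 0 of 6 later regions lost, beside 23.5% of all regions, and in the upper part of the Tet2-/- list by fold 0 of 6 and 0 of 5, beside 11.96%. Without the Elane and Prtn3 locus 0 of 7 primary regions were lost, and without Camp 0 of 5 later ones. Within 5 kb of the genes, or by nearest coding start, the later loci held 1 region, which was lost.

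The WT to Ep300Δ/Δ shares differed with how peaks were filtered. Peaks without an Ep300Δ/Δ overlap had a median percentile of 23.8 at the primary loci and 32.05 at the later loci, against 70.8 and 82.2 for those with one, and over all WT peaks the medians were 26.6 and 68.5. With a −log10 q of at least 5 required in both lists, 14 of 20 primary regions (70%) and 4 of 10 later regions (40%) were lost, beside 45.8% of all regions. When only the strongest peaks of each list were kept so that the lists had equal size, 3 of 13 primary regions (23.1%) and 1 of 7 later regions (14.3%) were lost, beside 24.1% of all regions. When a peak within 500 bp counted as shared, the primary share was 39.3%, beside 30.9% of all regions. In the upper part of the WT list by fold, 2 of 9 primary regions (22.2%) and 1 of 7 later ones (14.3%) were lost, beside 12.9%. At the later loci, counting only 5 kb on either side of the genes, or only regions whose nearest coding start was a member's, left 6 regions, all 6 of which were lost. At the primary loci 11 of 20 regions (55%) were lost within 5 kb. By nearest coding start 11 of 19 primary regions (57.9%) were lost, beside 39.7% of all regions.

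Gains were few. From WT to Ep300Δ/Δ cells, 2 of 13 primary and 1 of 7 later regions of the Ep300Δ/Δ list were gained, beside 12.8% of all regions. Where Tet2 was missing from both lists, 2 of 12 primary and 0 of 6 later regions were gained (upper limit of the exact interval 45.9% for the latter), beside 15.0%. The gained primary regions of the second comparison were the Prtn3 peak of 439 bp and the intronic Mpo peak of 287 bp.

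The lists without Tet2 and those with Ep300 deleted were also compared with each other's partners. From WT to Tet2-/- cells, 18 of 28 primary regions (64.3%, 44.1 to 81.4) and 6 of 13 later regions (46.2%, 19.2 to 74.9) were lost, beside 35.6% of all regions, and 1 of 11 and 1 of 8 were gained, beside 20.3%. This comparison shares the WT list with that of WT and Ep300Δ/Δ, so a WT region absent from both mutants counts in both. From Ep300Δ/Δ to Ep300Δ/Δ Tet2-/- cells, 5 of 13 primary regions (38.5%, 13.9 to 68.4) and 2 of 8 later regions (25.0%, 3.19 to 65.1) were lost, beside 31.2%, and 3 of 11 and 0 of 6 were gained, beside 18.5%. The 28 primary WT regions thus stood against 13 in Ep300Δ/Δ, 11 in Tet2-/-, and 12 in Ep300Δ/Δ Tet2-/- cells in the 4-list merge.

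**Figure D3:**
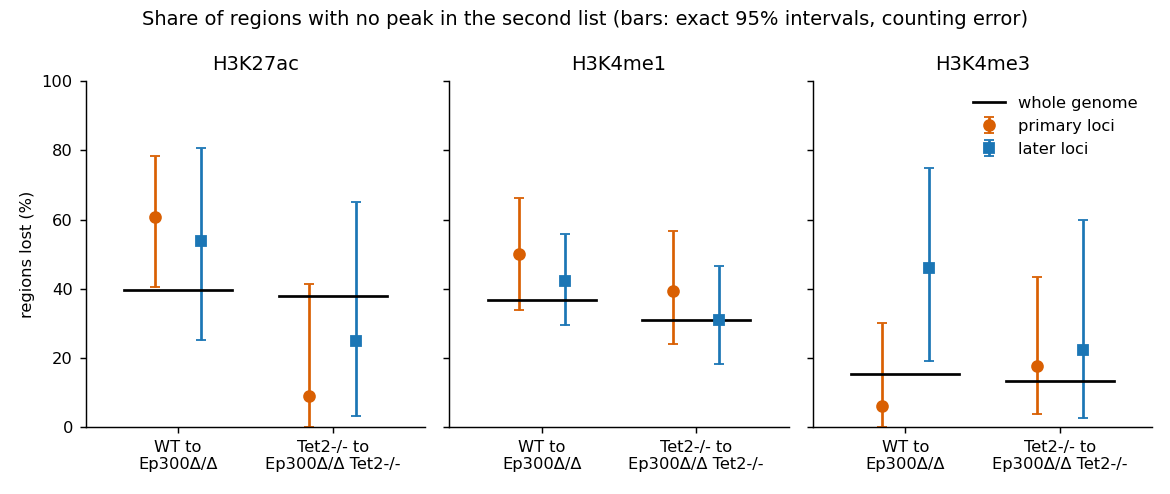
Share of regions with no peak in the second list, in percent on the vertical axis, for both Ep300 comparisons on the horizontal axis and the 3 marks in separate panels. Circles stand for the primary and squares for the later loci, vertical bars are exact 95% intervals that cover counting error, and horizontal lines are all regions of the genome. H3K27ac at the primary loci stands at 60.7% from WT to Ep300Δ/Δ and at 9.09% from Tet2-/- to Ep300Δ/Δ Tet2-/-, with wide bars that just overlap.

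In bases, all 7 members with H3K27ac in their WT core had fewer in Ep300Δ/Δ cells, and 3 of them (Camp, Ngp, and S100a9) had none. Of 11371 coding genes, 88.3% had fewer bases and 9.24% had none, so the direction is that of most genes. The median log2 ratio of bases, with 100 bp added to each, was −1.93 for the 7 members and −0.44 for all coding genes. A fall was also seen without Ep300 deletion. From WT to Tet2-/- cells, 6 of the 7 members had fewer bases, beside 65.5% of coding genes. The median log2 ratio there was −2.09 for the members and −0.15 for all coding genes. In Ep300Δ/Δ Tet2-/- against Tet2-/- cells, 3 of 5 members had fewer bases (Elane, Ctsg, and Camp) and 2 had more (Mpo and Prtn3), and 68.3% of 11148 coding genes had fewer.

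The primary genes held H3K4me3 in every list, and it covered much of each body. Of 11 H3K4me3 regions at these genes, 10 were in all 4 lists, and over the primary windows 14 of 17 regions (82.4%) were, against 64.1% of all regions of the 4-list merge. For H3K27ac the corresponding values were 7 of 31 (22.6%) and 35.5%. The Mpo core held 7716 bp of H3K4me3 in WT, 6624 bp in Ep300Δ/Δ, 8758 bp in Tet2-/-, and 8379 bp in Ep300Δ/Δ Tet2-/- cells, and ranked 134, 181, 72, and 77 among coding genes. The Prtn3 core ranked 138, 130, 102, and 83 in the same order. The Ctsg core ranked 2908, 4128, 2374, and 2299, and the Elane core 4770, 8614, 3978, and 6087. Broad H3K4me3 was thus seen at Mpo and Prtn3, whereas the bodies of Elane and Ctsg are short (1969 and 2694 bp). Peaks covered 68.5% of the Mpo body in WT, 60.3% in Ep300Δ/Δ, 76.7% in Tet2-/-, and 76.5% in Ep300Δ/Δ Tet2-/- cells. The Ctsg body was covered to 98.7% in WT, 91.7% in Ep300Δ/Δ, and 100% in both lists without Tet2. Each primary gene thus had H3K4me3 on its promoter in every list, also where its H3K27ac was nearly absent. At Elane in Ep300Δ/Δ cells the peak began after the RefSeq start and covered 31 of the 300 printed bases.

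Prtn3 and Elane showed H3K4me3 beside little H3K27ac most plainly, although part of their H3K4me3 is shared with other promoters. Regions chr10:79872865-79875853 and chr10:79877393-79878527 of the Prtn3 core also lie on the promoter of Plppr3. Region chr10:79887545-79888539 of the Elane core also lies on the promoter of Cfd, a neighboring gene. The Prtn3 core held 7701 bp of H3K4me3 in WT, 7077 bp in Ep300Δ/Δ, 8277 bp in Tet2-/-, and 8301 bp in Ep300Δ/Δ Tet2-/- cells, beside 4243, 1394, 252, and 439 bp of H3K27ac. A single H3K4me3 peak over the Prtn3 start spanned 4392 bp in WT, 3913 bp in Ep300Δ/Δ, 4441 bp in Tet2-/-, and 4255 bp in Ep300Δ/Δ Tet2-/- cells. The Elane core held 2583 bp in WT, 1641 bp in Ep300Δ/Δ, 2755 bp in Tet2-/-, and 2119 bp in Ep300Δ/Δ Tet2-/- cells, beside 0 bp of H3K27ac in the last. All 4 primary genes had fewer H3K4me3 bases in Ep300Δ/Δ than in WT and more in Tet2-/- than in WT, where 66.2% of coding genes had fewer in the former and 55.3% had fewer in the latter comparison.

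**Figure D4:**
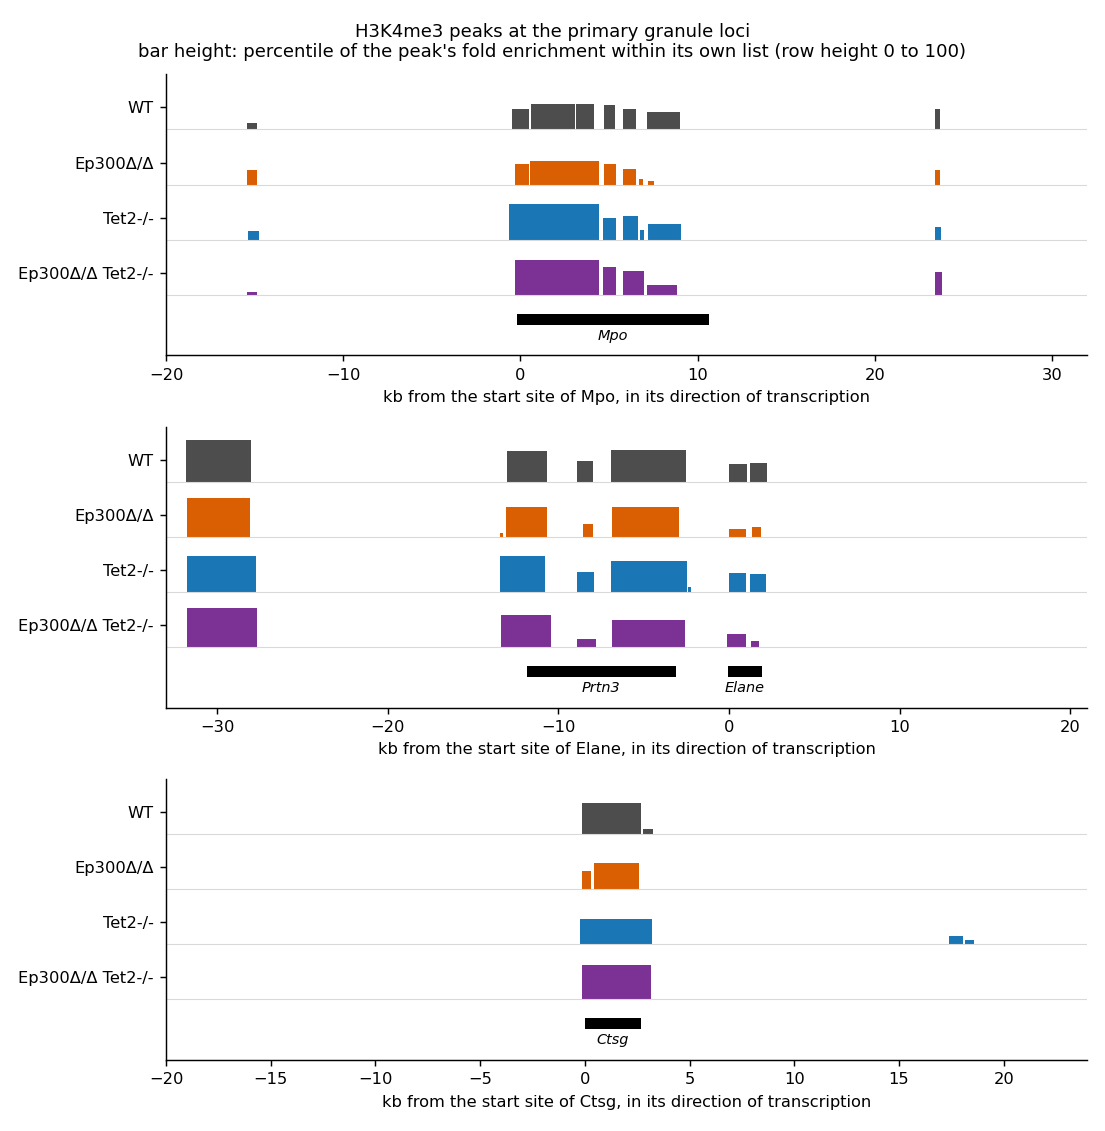
H3K4me3 peaks at the primary granule loci, with distance from the RefSeq start in kb on the horizontal axis, 1 row per genotype, and bar height as the percentile of a peak's fold within its own list. The 4 rows are much alike, with 10 of 11 regions at the genes in all 4 lists, and the bars at the left of the Elane and Prtn3 panel belong to Ptbp1. Some bars at Prtn3 and Elane also lie on the promoters of Plppr3 and Cfd.

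The later genes held little H3K4me3. S100a8 held 626 bp in WT, 473 bp in Ep300Δ/Δ, 0 bp in Tet2-/-, and 190 bp in Ep300Δ/Δ Tet2-/- cells. S100a9 held 313 bp in WT, 0 bp in Ep300Δ/Δ, 272 bp in Tet2-/-, and 0 bp in Ep300Δ/Δ Tet2-/- cells. Ngp held 433 bp in WT and none elsewhere, and Ltf and Camp held none in any list. The 822 to 912 bp in the Lcn2 core belonged to a peak over the start of its neighbor 1110008P14Rik. From WT to Ep300Δ/Δ cells, 1 of 16 primary regions (6.25%, 0.158 to 30.2) and 6 of 13 later regions (46.2%, 19.2 to 74.9) lost their H3K4me3 peak, beside 15.4% of all regions, and 2 of 17 and 0 of 7 were gained, beside 11.1%. From Tet2-/- to Ep300Δ/Δ Tet2-/- cells, 3 of 17 primary regions (17.6%) and 2 of 9 later regions (22.2%) were lost, beside 13.3%, and 0 of 14 and 1 of 8 were gained, beside 9.45%.

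H3K4me1 lay on the promoters of 10 members in WT, 9 in Ep300Δ/Δ, 10 in Tet2-/-, and 9 in Ep300Δ/Δ Tet2-/- cells, against 61.4% to 62.7% of all coding promoters. With a −log10 q of at least 5 these counts were 8, 5, 9, and 7. The cores held between 938 bp (S100a9) and 9904 bp (Prtn3) in WT, between 0 bp (S100a8) and 9442 bp (Prtn3) in Ep300Δ/Δ, between 670 bp (S100a9) and 10179 bp (Prtn3) in Tet2-/-, and between 0 bp (S100a9) and 9983 bp (Prtn3) in Ep300Δ/Δ Tet2-/- cells. All 10 members had fewer H3K4me1 bases in Ep300Δ/Δ than in WT cells, beside 62.5% of 14797 coding genes, with a median log2 ratio of −1.08 against −0.14. Ctsg held 1079 bp in WT, 227 bp in Ep300Δ/Δ, 1493 bp in Tet2-/-, and 847 bp in Ep300Δ/Δ Tet2-/- cells. Camp held 3931, 1771, 3350, and 1020 bp, and Ngp held 1598, 151, 1343, and 1465 bp, in the same order. Mpo held 4532, 2142, 6292, and 4976 bp. Mpo and Ctsg thus stood highest in Tet2-/- and lowest in Ep300Δ/Δ cells, whereas Camp was lowest in Ep300Δ/Δ Tet2-/- cells.

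By regions, 20 of 40 primary (exact interval 33.8% to 66.2%) and 25 of 59 later regions (42.4%, 29.6 to 55.9) lost H3K4me1 from WT to Ep300Δ/Δ cells, beside 36.7% of all regions, and 4 of 24 and 1 of 35 gained it, beside 24.1%. In the comparison without Tet2, 15 of 38 (39.5%) and 14 of 45 (31.1%) lost it, beside 31.1%, and 12 of 35 (34.3%) and 6 of 37 (16.2%) gained it, beside 23.4%. Of the 17 primary H3K27ac regions lost from WT to Ep300Δ/Δ cells, 12 overlapped an H3K4me1 peak in WT and 8 (47.1%) in Ep300Δ/Δ cells, and of the 7 later ones 6 did in WT and 4 (57.1%) in Ep300Δ/Δ cells. Over all lost H3K27ac regions the shares were 82.1% and 73.5%.

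**Figure D5:**
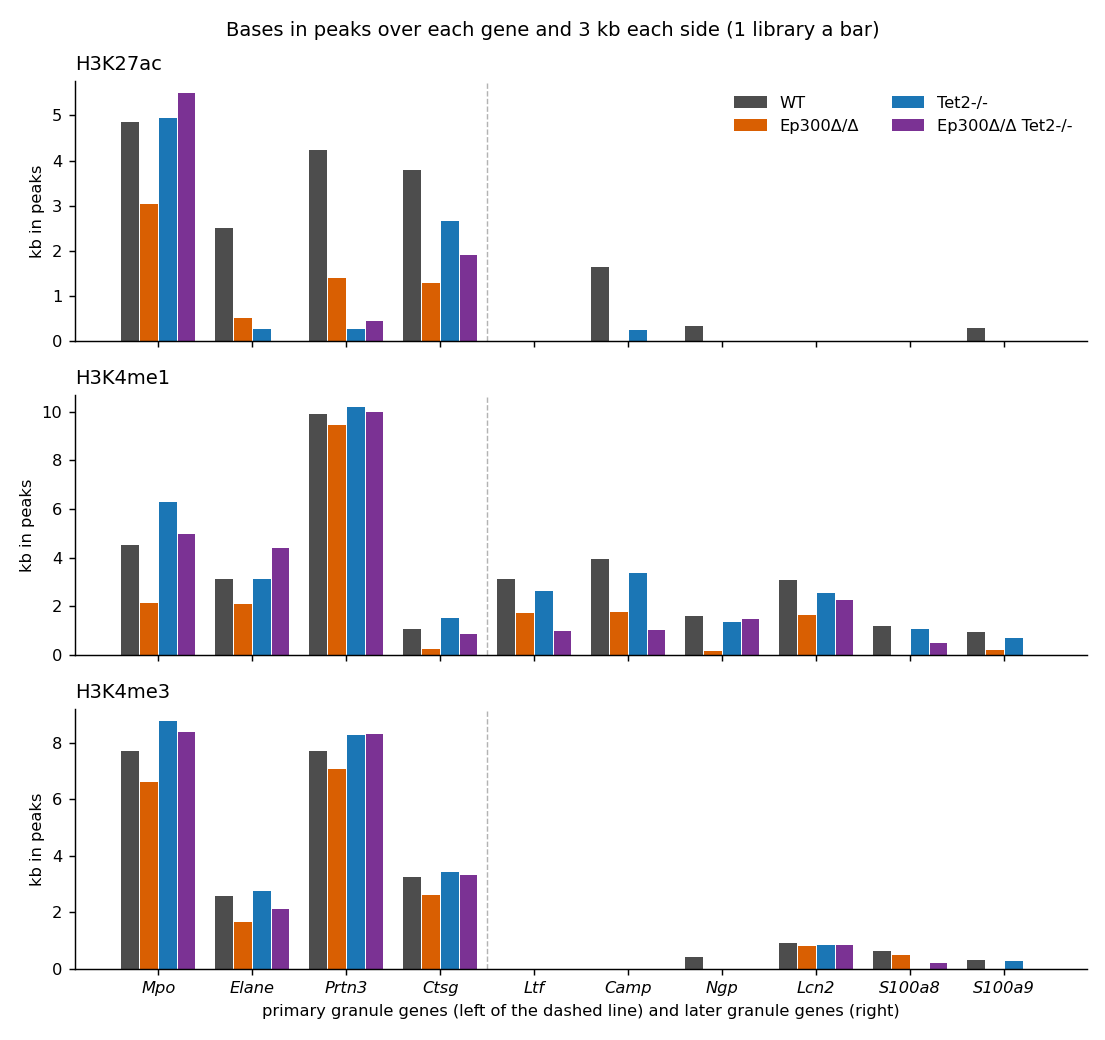
Bases in peaks, in kb on the vertical axis, within each gene and 3 kb on either side, for the 10 members on the horizontal axis, the 3 marks in separate panels, and 1 bar per genotype (1 library each). Mpo reaches 4860 to 5490 bp of H3K27ac in 3 of the 4 lists, Elane and Prtn3 have their tallest H3K27ac bars in WT, and Ltf, Lcn2, and S100a8 have no H3K27ac bar.

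Promoters, by the same 3000 bp, were then counted by state. An H3K27ac peak lay on 4 of 4 primary promoters in WT, 4 in Ep300Δ/Δ, 3 in Tet2-/-, and 3 in Ep300Δ/Δ Tet2-/- cells. It lay on 3 of 6 later promoters in WT, 0 in Ep300Δ/Δ, 1 in Tet2-/-, and 0 in Ep300Δ/Δ Tet2-/- cells. Over all coding genes it lay on 47.3%, 45.0%, 46.4%, and 43.1% of promoters in the same order. H3K4me3 lay on all 4 primary promoters in each list and on 3, 1, 1, and 1 of the later ones, against 61.9%, 63.2%, 62.3%, and 62.7% of all coding promoters. All 3 marks together lay on the 4 primary promoters, Ngp, and S100a9 in WT, and on 4, 3, and 3 primary and 0 later promoters in Ep300Δ/Δ, Tet2-/-, and Ep300Δ/Δ Tet2-/- cells. Over all coding promoters the shares with all 3 marks were 42.7%, 41.0%, 41.6%, and 38.8%.

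Of 7 members with an H3K27ac promoter peak in WT, Camp, Ngp, and S100a9 had none in Ep300Δ/Δ cells, beside 7.95% of all coding promoters. Of the 4 with one in Tet2-/- cells, Elane and Camp had none in Ep300Δ/Δ Tet2-/- cells, beside 10.2%, and Prtn3 had one there, shared with the promoter of Plppr3, and none in Tet2-/- cells. The Ep300Δ/Δ count of 4 members became 2 with promoters of 1000 bp on either side or with a −log10 q of at least 5, and the Tet2-/- count of 4 also became 2 with that q. H3K4me1 without the other marks lay on 2 later promoters in WT, 5 in Ep300Δ/Δ, 4 in Tet2-/-, and 4 in Ep300Δ/Δ Tet2-/- cells and on no primary promoter, against 4.85% to 6.09% of coding promoters.

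The other granule genes were counted in the same way. Of 9 further primary granule genes, 8 had an H3K27ac promoter peak in WT, 7 in Ep300Δ/Δ, 6 in Tet2-/-, and 6 in Ep300Δ/Δ Tet2-/- cells, and all 9 had H3K4me3 in each list. Over all coding promoters the H3K27ac shares were 47.3%, 45.0%, 46.4%, and 43.1%, and those of H3K4me3 61.9% to 63.2%. The H3K27ac peak was missing at 1 of 8 from WT to Ep300Δ/Δ cells, beside 7.95%. From Tet2-/- to Ep300Δ/Δ Tet2-/- cells it was missing at 2 of 6, beside 10.2%, and 2 other genes gained one. Ms4a3, a membrane protein gene of myeloid progenitors, had 361 bp in WT, 0 bp in Ep300Δ/Δ, 0 bp in Tet2-/-, and 487 bp in Ep300Δ/Δ Tet2-/- cells. Prss57, a serine protease gene of the same family as Elane, had 3050, 789, 972, and 0 bp, and Cd63, a granule membrane protein gene, had 2245, 517, 1816, and 0 bp, in that order. Lyz2, the lysozyme gene of myeloid cells, had 328, 75, 0, and 509 bp. The WT peaks of Ms4a3 and Lyz2 were weak, at percentiles 12.9 and 16.9.

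Of 19 further later genes, 11 had an H3K27ac promoter peak in WT, 5 in Ep300Δ/Δ, 6 in Tet2-/-, and 4 in Ep300Δ/Δ Tet2-/- cells, whereas H3K4me3 lay on 11, 10, 11, and 10 of them. From WT to Ep300Δ/Δ cells the peak was missing at Mmp9 (gelatinase B), Cybb (an NADPH oxidase subunit), Hp (haptoglobin), Wfdc21, Adam8, and Padi4 (a histone deiminase). These had 199 to 634 bp in WT, at percentiles from 0.654 to 46.8. From Tet2-/- to Ep300Δ/Δ Tet2-/- cells it was missing at Hp (300 bp in Tet2-/-) and Fcnb (409 bp), a ficolin gene. No later gene of this list gained one in either comparison. The percentages for all coding promoters given above apply here too, both the shares with a peak and the 7.95% and 10.2% that lost it.

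Among 19 genes of regulators of granulocyte formation, 18 had an H3K27ac promoter peak in WT, 17 in Ep300Δ/Δ, 15 in Tet2-/-, and 14 in Ep300Δ/Δ Tet2-/- cells, against 47.3%, 45.0%, 46.4%, and 43.1% of all coding promoters. The peak was missing at 1 of 18 from WT to Ep300Δ/Δ, beside 7.95%, and at 1 of 15 from Tet2-/- to Ep300Δ/Δ Tet2-/- cells, beside 10.2%. Klf5 had 248 bp in WT and none in the other 3 lists, and Per3, a clock gene, had 743, 735, 898, and 0 bp. The promoters of Cebpe, Spi1, which encodes PU.1, Gfi1, Runx1, and Myb had a peak in all 4 lists, and those of Cebpa and Csf3r, the G-CSF receptor gene, had one only in WT and Ep300Δ/Δ cells.

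Markers of other cell types differed between the lists as well. Within the cores of 8 stem and progenitor marker genes, H3K27ac covered 23938 to 27650 bp over the 4 lists, with promoter peaks at 7, 7, 6, and 7 of them in WT, Ep300Δ/Δ, Tet2-/-, and Ep300Δ/Δ Tet2-/- cells. Over 8 monocyte and macrophage markers it covered 16964, 13413, 10406, and 6954 bp, with promoter peaks at 8, 5, 6, and 4. Over 12 neutrophil markers, 10 of which are the members themselves, it covered 21334, 7407, 9402, and 8282 bp. The whole H3K27ac lists covered 18.7, 11.5, 15.0, and 11.9 Mb in the same order, so covered bases differed between the lists as a whole. Of all coding promoters, 47.3%, 45.0%, 46.4%, and 43.1% had an H3K27ac peak. Promoter peaks lay on 5, 5, 7, and 4 of 8 erythroid, 4, 3, 3, and 2 of 8 B lymphoid, 4, 3, 3, and 4 of 8 T and NK lymphoid, and 2, 1, 2, and 2 of 6 mast cell and basophil markers. All 6 genes of other organs had none in any list. Of the B lymphoid markers, Cd79a, Pax5, Ebf1, and Ms4a1 had none in any list, and Vpreb1 and Igll1 had one in all 4. Of the T and NK lymphoid markers, Cd3e, Cd4, Cd8a, and Tcf7 had none, and Cd3d, Lck, and Trac had one in all 4. Of the mast cell and basophil markers, Prss34, Cpa3, Ms4a2, and Fcer1a had none, and Hdc had one in all 4. The part of these differences in the granule gene values was not tested.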

How the data were processed

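ChIP-Seq libraries of H3K27ac, H3K4me1, and H3K4me3 from Lin- bone marrow cells gave 12 peak lists, 1 for each of 4 genotypes and 3 marks. Samples were grouped by the genotype and antibody of their labels. Of 20 samples, the 8 for H3 and H3K27me3 were not analysed here. The authors used cutadapt 1.15 for trimming, BWA 0.7.13 for alignment to mm10, and Picard for duplicates, removed blacklisted regions, and called peaks with MACS2 2.1.1.20160309 against the H3 library, kept from pseudo-replicates at a stated q-value under 0.05. Each precipitation used 5 μg of chromatin and 1 μg of antibody, with 10 ng of fly chromatin added. The deposited files give a fold enrichment over H3, a −log10 of the p-value and q-value, and a score that follows the p-value. The score was not used. The deposited fold was used as a percentile within its list and never as an amount between lists. The labels call the libraries single-end and the methods paired-end. The number of called peaks depends on library depth and yield, which the lists do not give.

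Windows were GENCODE release M21 gene bodies with 20 kb on either side, on GRCm38. Lost and gained regions, promoters, and cores were defined as in the results. Exact Clopper-Pearson 95% intervals cover counting error. Members and gene lists were chosen with earlier results of these data known, and all members were named. Of the other lists every gene was counted, and those whose promoter peak state differed between WT and Ep300Δ/Δ or between Tet2-/- and Ep300Δ/Δ Tet2-/- cells were named; regulators with equal states, Cebpa, Csf3r, and markers were named after their values were seen. Sequences came from the RefSeq promoter table and the GRCm38 genome. The comparison code was tested on simulated data, where 20 of 20 list pairs were recovered, and 12 of 12 lost counts equaled those of bedtools 2.31.1. Python 3.11.15, numpy 2.4.6, pandas 2.3.3, scipy 1.17.1, and matplotlib 3.10.9 were used.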

Additional observations from a re-analysis of the deposited data

Results flagged for a closer look

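The H3K27ac bases in the Prtn3 core moved in opposite directions in the 2 comparisons of Ep300 deletion. The Ep300Δ/Δ value was 0.329 times the WT value, and the Ep300Δ/Δ Tet2-/- value was 1.74 times the Tet2-/- value. Each value comes from 1 library, and the difference was not tested. The numerator of the second ratio is a single 439-bp peak with a −log10 q of 1.29, and its denominator is a 252-bp peak nearer to Elane.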

How the results depend on the processing

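No paired analysis was possible because each genotype and mark has 1 library, and for the same reason no replicate could be left out. The share of H3K27ac regions lost was recomputed with other windows, overlaps, thresholds, list sizes, and sets of loci. From WT to Ep300Δ/Δ cells the primary share of 60.7% became 23.1% with lists of equal size (24.1% over all regions), 22.2% in the upper part of the WT list by fold (12.9%), and 39.3% when a peak within 500 bp counted as shared (30.9%), against 70% with a −log10 q of at least 5 in both lists (45.8%) and 71.4% when a region had to be covered at least 50% (48.1%). The later share of 53.8% became 40% with that q, 14.3% with lists of equal size, 14.3% in the upper part of the list, 100% within 5 kb of the genes, and 100% for regions whose nearest coding start was a member's. Without 1 locus in turn these shares ranged from 50% to 65.2% and from 44.4% to 62.5%. From Tet2-/- to Ep300Δ/Δ Tet2-/- cells the primary share of 9.09% became 0% with lists of equal size (23.5% over all regions), 0% in the upper part of the list (11.96%), and 0% without Elane and Prtn3, and the later share of 25.0% became 0% with lists of equal size, 0% in the upper part of the list, 0% without Camp, and 100% (1 of 1 region) within 5 kb or by nearest start. Without 1 locus in turn they ranged from 0% to 14.3% and from 0% to 40%. The primary share was above that of all regions in 10 of 11 settings from WT to Ep300Δ/Δ cells and in 0 of 11 from Tet2-/- to Ep300Δ/Δ Tet2-/- cells, and the later share in 11 of 13 and 3 of 13. The settings reuse the same libraries and many of the same regions, so they are not independent results. In most primary settings from WT to Ep300Δ/Δ cells the exact interval included the share of all regions. Of the member counts with a promoter peak, 20 of the 24 recomputed stayed within 1.5 times, and with a −log10 q of at least 5 the counts became 2 of 10 for H3K27ac in Ep300Δ/Δ, 2 of 10 in Tet2-/-, and 5 of 10 for H3K4me1 in Ep300Δ/Δ cells. The causes were not tested.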
